A study of Mus musculus with 12 samples.

Results

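Neuropeptide precursor genes were examined in injured mouse spinal cord. The 10 genes CALCA, CALCB, TAC1, PENK, PDYN, SST, NPY, CCK, GRP and NTS were chosen by name, and all 10 were among the 13957 genes listed for either site. The libraries came from male mice of 4 months that all expressed human ApoE4, the apolipoprotein E variant linked to poorer recovery after spinal cord injury, and that had all received a contusion at thoracic level 9. The groups differed in synj1, which encodes the lipid phosphatase synaptojanin 1, and in the site sampled, with 3 libraries in each of 4 groups. By their labels the synj1+/+ groups had normal alleles and the synj1+/- groups had an inactive allele, each sampled just above and just below the lesion at day 14 after injury. Sham-operated cord and ApoE3 libraries were not analysed here. The table gives 1 pooled value per gene and group, so no spread between mice, standard error or test could be computed from it, and the reads behind a value are unknown. The values of a site were scaled together and those of the sites apart, so levels above and below the lesion are set side by side without comparison.

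Neuropeptides are short secreted signals that neurons cut from longer precursor proteins, store in dense-core vesicles and release to act on G protein-coupled receptors. In the spinal cord many of them mark classes of dorsal horn interneurons that relay or dampen pain and itch, and some also occur in motor neurons and in the sensory fibres that enter the cord. The RNA of a sensory fibre lies mostly in its cell body outside the cord, so cord RNA reports mainly on cells that reside there. In bulk tissue, fewer cells of a type and less RNA per cell cannot be told apart.

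SYNJ1 was read first as a check of the labels. Its level was 1904 FPKM (fragments per kilobase of transcript, scaled for library size by the upper quartile) in the synj1+/+ labelled group and 2403 FPKM in the synj1+/- labelled group above the lesion. Below the lesion it was 1846 and 2592 FPKM. The gene that the genotype should lower was thus higher in both groups labelled synj1+/-. An exon of 4930404I05Rik lies over SYNJ1 on the opposite strand, and the library kit is not described as keeping strand. That gene was 6.15 and 7.20 FPKM above the lesion and 6.95 and 7.58 FPKM below it. The study reports synj1 mainly in neurons, and the part that neuron content played in the SYNJ1 values was not tested. All directions below are read from the labels as deposited, and this table cannot tell whether those labels are right. SST lies on the same chromosome as SYNJ1, chromosome 16, with 67.0 Mb between their starts. None of the other 9 neuropeptide genes is on that chromosome.

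The CALCA and CALCB precursors are so alike that their sequences bear on how the reads were assigned. In GENCODE on GRCm38, CALCA (ENSMUSG00000030669.13) lies on chromosome 7 from 114631478 to 114636357 on the minus strand. CALCB (ENSMUSG00000030666.11) lies on the same chromosome from 114718643 to 114723365 on the plus strand. The longest run of bases shared by their protein-coding transcripts was 61 bases, inside the coding sequence of both genes. It is shown as the longest stretch they share, and not as the only one.
CALCA and CALCB shared coding run: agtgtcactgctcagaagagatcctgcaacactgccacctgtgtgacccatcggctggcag
In CALCA the run covers the last 2 bases of exon 3, chr7:114634468-114634469, and 59 bases of exon 4, chr7:114632541-114632599, of a transcript with 5 exons. Of 1632 distinct windows of 100 bases in the CALCA transcripts, 0 occurred in CALCB, and of 1634 windows of 50 bases, 12 did. The 100 bases are the read length of the study, whose reads were paired. Only exact matches were counted. The value is given per gene, so the CALCA forms that encode calcitonin and calcitonin gene-related peptide (CGRP) cannot be told apart.

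Short promoter windows are shown for the genes in which a cyclic AMP response element, TGACGTCA, or its shorter form TGACG was found nearest to the RefSeq start on GRCm38.p6. Both strands were searched over 250 bases before each start, and the shorter form is part of the longer one. Capitals mark the match, which reads CGTCA where TGACG lies on the other strand, and every window is 30 bases on the gene's own strand.
SST, chr16:23890874-23890903, minus strand: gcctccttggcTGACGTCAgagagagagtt
CALCA, chr7:114636405-114636434, minus strand: gaagcacagaggTGACGcaatctgtctggg
CCK, chr9:121495724-121495753, minus strand: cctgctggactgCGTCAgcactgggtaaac
TAC1, chr6:7555006-7555035, plus strand: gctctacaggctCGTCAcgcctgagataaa
The full element was found in SST, 48 bases before the start, and in 1.55% of the 32851 promoters of the table. The shorter form was found in 5 of the 7 neuropeptide genes with a promoter entry, SST, CALCA, CCK, TAC1 and, farther from its start and not shown, NTS. It was found in 17.8% of all promoters. NPY and PDYN held neither within this window. The RefSeq starts of SST and TAC1 lie inside the GENCODE genes, so their windows fall within the GENCODE gene spans and not before them. Entries for CALCB, PENK and GRP were not used here.

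Levels within a group are compared per length, as FPKM. In the synj1+/+ labelled group above the lesion, PENK had the highest level of the 10 genes and PDYN the lowest, 18.4-fold apart. The 5 genes PENK, SST, CALCA, CCK and TAC1 were the highest in every group and lay between 51.8 and 336 FPKM. The other 5, NPY, NTS, CALCB, GRP and PDYN, lay between 12.3 and 30.1 FPKM. Neighbours in this order cannot be called different, because no spread between mice is given.

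**Figure D1:**
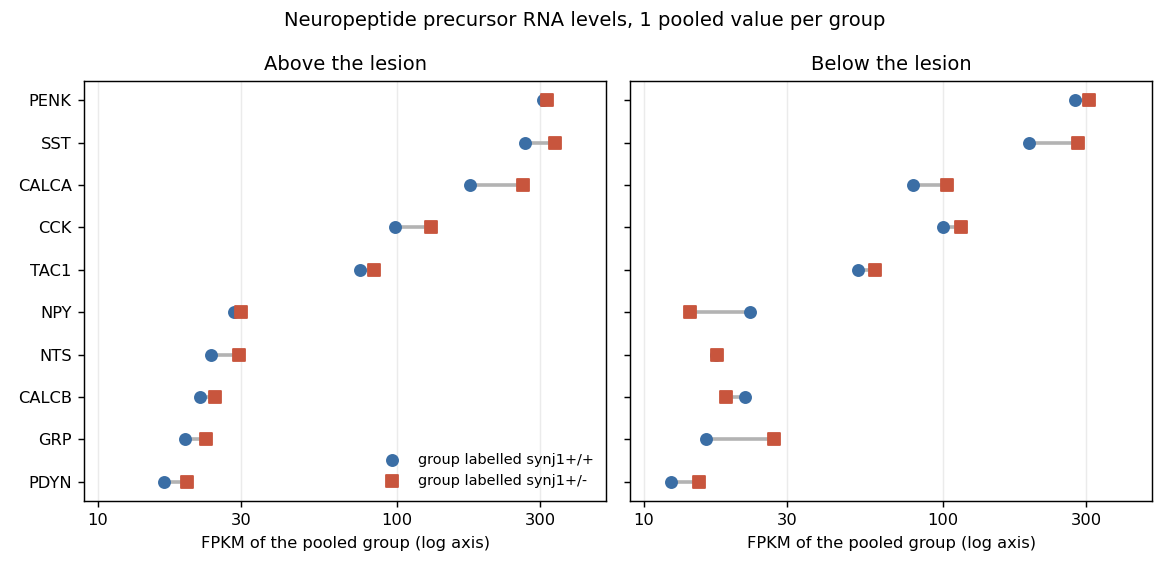
FPKM on a log axis for each neuropeptide gene, above the lesion (left panel) and below it (right panel), with circles for the synj1+/+ labelled group and squares for the synj1+/- labelled group, each a single value pooled over 3 libraries. Above the lesion every square lies to the right of its circle, and below the lesion those of NPY and CALCB lie to the left.

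Above the lesion, all 10 neuropeptide genes were higher in the synj1+/- labelled group, where 49.0% of the 13645 genes listed there were higher. Ratios were taken as log2 of the synj1+/- labelled group over the synj1+/+ labelled group, on FPKM plus 1. The median over the 10 genes was 0.23, against 0.00 over all listed genes (the value rounds from below 0), and the range ran from 0.05 for PENK to 0.59 for CALCA. A ratio of at least 1.5-fold was used to single out a gene, since the table gives no values of single libraries and the study's own p-values were not used here. CALCA alone of the 10 passed it in the upward direction, where 0.791% of all listed genes did, and 0 of the 10 passed it downward, where 1.93% did. CALCA, CCK and SST were at least 25% higher, 3 of 10 against 4.18% of all genes, and 0 were at least 20% lower, against 7.44%. The summed level of the 10 genes was 1031 FPKM in the synj1+/+ labelled group and 1255 FPKM in the synj1+/- labelled group.

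Below the lesion, 8 of the 10 genes were higher in the synj1+/- labelled group and CALCB and NPY were lower, where 52.8% of 12337 listed genes were higher. The median log2 ratio was 0.19 against 0.01 over all listed genes, and the range was wider, from -0.63 for NPY to 0.72 for GRP. GRP was at least 1.5-fold higher, as were 1.16% of all listed genes, and NPY at least 1.5-fold lower, as were 4.38%. GRP, SST and CALCA were at least 25% higher, 3 of 10 against 8.07% of all genes, and NPY was at least 20% lower, 1 of 10 against 11.5%. The 8 genes higher below the lesion were also higher above it, which follows from all 10 being higher there and adds nothing to the counts. Over all 12025 genes with a value above and below, 31.3% were higher at both sites.

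**Figure D2:**
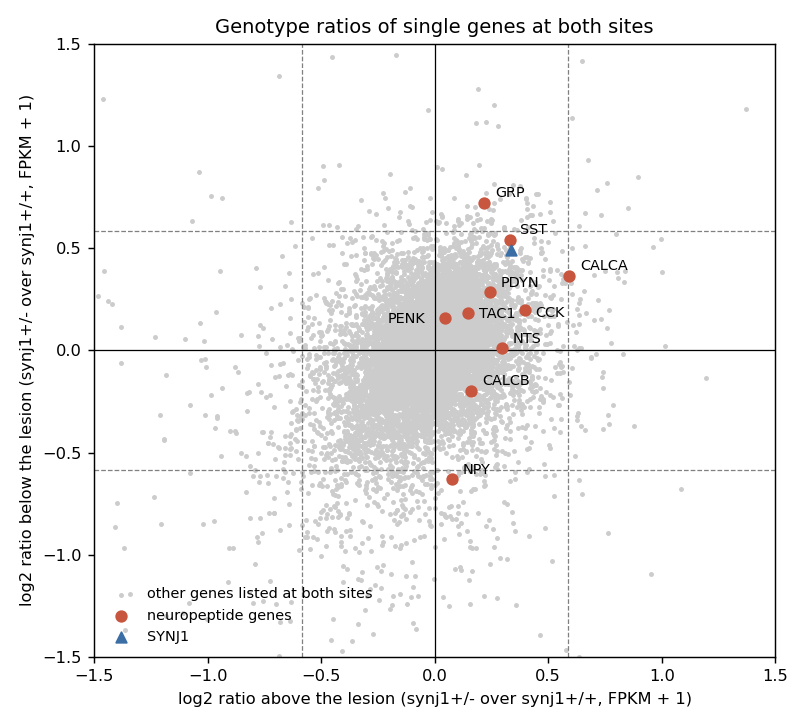
Log2 ratio of the synj1+/- labelled group over the synj1+/+ labelled group above the lesion (horizontal axis) and below it (vertical axis), on FPKM plus 1, with neuropeptide genes as labelled circles, SYNJ1 as a triangle and other genes listed at both sites in grey; dashed lines mark 1.5-fold and genes beyond 1.5 on either axis are not drawn. All 10 neuropeptide genes lie to the right of 0, CALCA touches the dashed line above the lesion, GRP lies beyond it upward below the lesion and NPY beyond it downward.

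CALCA encodes the precursor of alpha-CGRP, a vasodilator peptide of pain fibres that spinal motor neurons also make. Above the lesion its level was 175 FPKM in the synj1+/+ labelled group and 264 FPKM in the synj1+/- labelled group, a log2 ratio of 0.59 or 1.51-fold. That value ranked 106 from the highest of the 13645 genes listed and stood just inside 1.5-fold, and with a pseudocount of 5 it was 0.58 and lay just outside. Below the lesion CALCA was 79.4 and 103 FPKM, a log2 ratio of 0.37. The group labelled synj1+/- thus had the higher CALCA level at each site. The ratio below minus that above was -0.23, and whether the ratios differ beyond the spread between mice could not be tested.

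CALCB, the neighbouring gene for beta-CGRP, was low, and its level in the synj1+/- labelled group was higher above the lesion and lower below it. It was 21.8 FPKM in the synj1+/+ labelled group and 24.5 FPKM in the synj1+/- labelled group above the lesion, and 21.7 and 18.8 FPKM below it. Its log2 ratios were 0.16 above and -0.20 below. CALCA exceeded CALCB by 7.99-fold and 10.8-fold above the lesion, and by 3.66-fold and 5.46-fold below it, with the synj1+/+ labelled group first each time.

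The cell types in which CALCA is known were read from their markers. Of 6 motor neuron markers listed above the lesion, 3 were higher in the synj1+/- labelled group, with a median log2 ratio of -0.01. CHAT, which makes acetylcholine, SLC18A3 and SLC5A7 were lower there, at -0.35, -0.11 and -0.13, and ISL1, CHODL and MNX1 were higher, at 0.39, 0.22 and 0.09. ISL1, at 0.88 and 1.46 FPKM, and MNX1, at 1.51 and 1.66 FPKM, were near the floor, so their ratios are weak evidence. Below the lesion 5 of 5 listed motor neuron markers were higher, with a median of 0.18, where 52.8% of all listed genes were higher, against 49.0% above. Of 11 primary sensory neuron markers, 10 were not listed at either site, among them SCN10A, TRPV1 and AVIL. The only listed marker, POU4F1, had log2 ratios of -0.08 above and 0.25 below.

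The genes whose pair of log2 ratios lay nearest to that of CALCA were sought among the 11941 genes with at least 1 FPKM in all 4 groups. The 5 nearest were HAUS4, ZMYND12, LMO7, CAR4 and NEUROD2, at distances of 0.01 to 0.04 on the log2 scale. Each had a log2 ratio of 0.55 to 0.60 above the lesion and 0.33 to 0.38 below. The likeness rests on only 2 ratios per gene, and 27 of the 11941 genes were at least 1.5-fold higher above and 25% higher below.

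TAC1 (chr6:7554879-7565834, plus strand) encodes the precursor of substance P, the tachykinin of pain pathways. It was 75.4 FPKM in the synj1+/+ labelled group and 83.6 FPKM in the synj1+/- labelled group above the lesion, and 51.8 and 58.9 FPKM below it. The log2 ratios, 0.15 and 0.18, were nearly equal at the sites.

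PENK (chr4:4133531-4138819, minus strand) and PDYN (chr2:129686565-129699844, minus strand) encode the precursors of the opioid peptides enkephalin and dynorphin. PENK was 306 FPKM in the synj1+/+ labelled group and 316 FPKM in the synj1+/- labelled group above the lesion, and 275 and 307 FPKM below it. Its log2 ratio of 0.05 above the lesion was the smallest of the 10, and that below was 0.16. An exon of A830012C17Rik lies over PENK on the opposite strand, and the library kit is not described as keeping strand, so reads of these genes cannot be told apart. PDYN was the lowest of the 10 in 3 of the 4 groups. Its level was 16.7 and 19.9 FPKM above the lesion and 12.3 and 15.2 FPKM below it, with log2 ratios of 0.24 and 0.29.

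SST (chr16:23889573-23890958, minus strand) encodes somatostatin, an inhibitory peptide that in the dorsal horn marks mainly excitatory interneurons. It was 267 FPKM in the synj1+/+ labelled group and 336 FPKM in the synj1+/- labelled group above the lesion, and 194 and 283 FPKM below it. The log2 ratios were 0.33 above and 0.54 below, or 1.26-fold and 1.46-fold, and the value below stood just outside 1.5-fold. In the synj1+/- labelled group above the lesion, SST and not PENK was the highest of the 10 genes.

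NPY (chr6:49822710-49829507, plus strand), made by inhibitory dorsal horn neurons, had the widest gap between the sites. It was 28.5 FPKM in the synj1+/+ labelled group and 30.1 FPKM in the synj1+/- labelled group above the lesion. Below the lesion it was 22.6 and 14.3 FPKM, and in the latter group it was the lowest of the 10 genes. With a pseudocount of 5 the log2 ratio below was -0.52, short of 1.5-fold. On FPKM plus 1 it was 0.07 above and -0.63 below, a difference of -0.71, and 2.14% of the 12025 genes listed at both sites had a difference that low or lower. Of the inhibitory neuron markers, 8 of 8 were higher below the lesion, where 52.8% of all listed genes were, with log2 ratios from 0.35 to 0.53. LHX1, at 1.41 and 2.25 FPKM, PAX8, at 1.74 and 2.98 FPKM, and LHX5, at 2.57 and 3.91 FPKM, were near the floor. Their ratios are weak evidence, and PAX8 set the top of the range. The others ran from 0.35 to 0.49. GAD1, which makes GABA, was 238 and 315 FPKM there and SLC32A1, the vesicular transporter of GABA and glycine, was 167 and 228 FPKM.

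CCK, GRP and NTS encode cholecystokinin, gastrin-releasing peptide and neurotensin, peptides found largely in excitatory dorsal horn interneurons. CCK was 98.1 FPKM in the synj1+/+ labelled group and 129 FPKM in the synj1+/- labelled group above the lesion, and 99.6 and 115 FPKM below it. Its log2 ratio was 0.40 above, second to that of CALCA, and 0.20 below. NTS was 23.8 and 29.5 FPKM above the lesion, and 17.4 and 17.5 FPKM below it. Its log2 ratios were 0.30 above and 0.01 below.

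GRP, the itch peptide, had the highest ratio of the 10 genes below the lesion. It was 19.5 FPKM in the synj1+/+ labelled group and 22.9 FPKM in the synj1+/- labelled group above the lesion, and 16.1 and 27.2 FPKM below it. The log2 ratio was 0.22 above and 0.72 below, and the latter ranked 60 from the highest of 12337 genes. The difference between the sites was 0.50, and 96.5% of genes listed at both sites had a smaller or equal difference. GRP and NPY, with the largest differences between the sites, both lay under 31 FPKM in every group.

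Counted by direction alone, the wider group of neuropeptide precursors was split at both sites. Of all listed genes, 49.0% were higher above the lesion and 52.8% below it. Of 42 other precursors in the list, 19 were listed above the lesion, 9 of them higher in the synj1+/- labelled group, with a median log2 ratio of -0.01. NMB, neuromedin B, was 5.25 and 9.60 FPKM and alone of the 19 passed 1.5-fold upward, where 0.791% of all listed genes did. Below the lesion 12 of 20 were higher, with a median of 0.21 against 0.01 over all listed genes. Their summed level was 396 and 387 FPKM. ADCYAP1 alone made up 228 and 170 FPKM of it, so the sum mostly follows that gene. At least 25% higher were 9 of 20, against 8.07% of all listed genes, and 3 were at least 20% lower, against 11.5%. Past 1.5-fold upward were 5 of 20, against 1.16% of all listed genes: CARTPT, GNRH1, PNOC, TAC2 and VIP. In the downward direction 0 passed it, against 4.38%. CARTPT, the precursor of CART peptide, was 25.5 FPKM in the synj1+/+ labelled group and 48.5 FPKM in the synj1+/- labelled group. TAC2, the precursor of neurokinin B, was 19.3 and 31.1 FPKM, and PNOC, the precursor of nociceptin, was 15.5 and 24.1 FPKM. VIP was 5.26 and 8.47 FPKM and GNRH1 was 2.14 and 4.17 FPKM.

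The machinery that packs and cuts precursors showed small ratios above the lesion and larger ones below. That pattern was not particular to it. Excitatory dorsal horn markers had medians of 0.12 above and 0.31 below, and inhibitory neuron markers 0.10 and 0.44. Of 18 genes for dense-core vesicle cargo and peptide processing, all were listed above the lesion, 12 were higher in the synj1+/- labelled group with a median log2 ratio of 0.05. Below the lesion 14 of 15 were higher with a median of 0.31. The shares of all listed genes that were higher were 49.0% above and 52.8% below. At either site 0 passed 1.5-fold, near the low shares of all listed genes. Those were 0.791% upward and 1.93% downward above the lesion, and 1.16% and 4.38% below it. PCSK2, a convertase that cuts precursors, was 21.6 and 29.3 FPKM below the lesion, and PCSK1 was 16.0 and 20.6 FPKM. CHGA and CHGB, the chromogranins of the vesicle core, had log2 ratios of 0.33 and 0.29 there. CPE, which trims the cut peptides, was the exception at -0.04, with 660 and 641 FPKM.

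The receptors of the 10 peptides were read in the same groups. Above the lesion 9 of 20 listed receptor genes were higher in the synj1+/- labelled group, with a median log2 ratio of -0.03. Below the lesion 12 of 17 were higher, with a median of 0.28. All listed genes were higher in 49.0% of cases above and 52.8% below. OPRM1, the mu opioid receptor on which enkephalin acts, was 20.4 FPKM in the synj1+/+ labelled group and 5.15 FPKM in the synj1+/- labelled group above the lesion, a log2 ratio of -1.80, and it was not listed below. The delta and kappa receptors OPRD1 and OPRK1 had log2 ratios of -0.27 and -0.04 above the lesion. Their ratios below it were 0.45 and 0.21.

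The CGRP receptor joins CALCRL with RAMP1, and both genes were slightly lower in the synj1+/- labelled group at each site. Among the ratios of all listed genes, CALCRL stood at percentiles 24.0 above and 26.6 below, and RAMP1 at 41.5 and 26.7. A link to CALCA was not tested. CALCRL was 7.96 and 7.18 FPKM above the lesion and 8.03 and 7.23 FPKM below it, a log2 ratio of -0.13 at each site. RAMP1 was 223 and 217 FPKM above and 245 and 224 FPKM below. RAMP2, which turns CALCRL into an adrenomedullin receptor, was 33.4 and 21.4 FPKM below the lesion, with -0.05 on the log2 scale above. Its ratio below was past 1.5-fold downward, 1 of 17 receptor genes where 4.38% of all listed genes were.

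The substance P receptor TACR1 had log2 ratios of -0.11 above the lesion and 0.44 below it. SSTR1 and SSTR2, receptors of somatostatin, had 0.13 and -0.09 above the lesion and 0.46 and 0.32 below it. SSTR3, a further somatostatin receptor, had 0.17 above and -0.02 below. CCKBR had 0.14 above and 0.28 below. RAMP3, another partner of CALCRL, had 0.47 above and 0.48 below, and TACR3, the neurokinin B receptor, had 0.31 and 0.49. The NPY receptor NPY2R was listed only below the lesion, at 0.43. NPY1R had 0.11 above and 0.07 below and NPY5R had -0.04 and 0.12, while NPY itself had -0.63 below. GRPR, the receptor of GRP, was not listed at either site. NTSR2, which astrocytes also express, was 751 and 667 FPKM above and 745 and 705 FPKM below.

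Peptidases that break neuropeptides down were about evenly split, with 6 of 12 higher above the lesion and 5 of 12 below. Their medians were -0.05 and -0.02, and the shares of all listed genes that were higher were 49.0% and 52.8%. MME (neprilysin), which cleaves enkephalin and substance P, was 7.22 and 10.7 FPKM below the lesion, a log2 ratio of 0.50. ANPEP was 12.2 and 6.61 FPKM there and passed 1.5-fold downward, 1 of 12 where 4.38% of all listed genes did.

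Cell type markers also differed between the groups. Among markers of neurons in general, 6 of 9 were higher above the lesion and 7 of 7 below, with medians of 0.09 and 0.19. For comparison, 49.0% of all listed genes were higher above and 52.8% below. Among 8 excitatory dorsal horn markers, 6 were higher at each site, with medians of 0.12 and 0.31, and the 8 inhibitory neuron markers had medians of 0.10 and 0.44. Fibroblast markers were lower, 9 of 9 above the lesion and 8 of 8 below. Their summed levels were 340.0 and 247 FPKM above and 533 and 119 FPKM below. FN1 made up most of the sum above, at 229 and 158 FPKM, and was not listed below, so the sums cover different genes. Microglia and macrophage markers were lower for 11 of 12 above and 10 of 10 below, with summed levels of 2178 and 1511 FPKM above and 2865 and 1846 FPKM below. Medians for the other cell types were -0.26 and -0.18 for astrocytes, -0.12 and 0.04 for oligodendrocytes (2 of 6 markers listed), 0.10 and -0.15 for endothelium, above and below in turn. NCMAP, a marker of Schwann cells, had log2 ratios of 0.88 above and -0.37 below. The part that cell makeup played in the neuropeptide ratios was not tested.

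**Figure D3:**
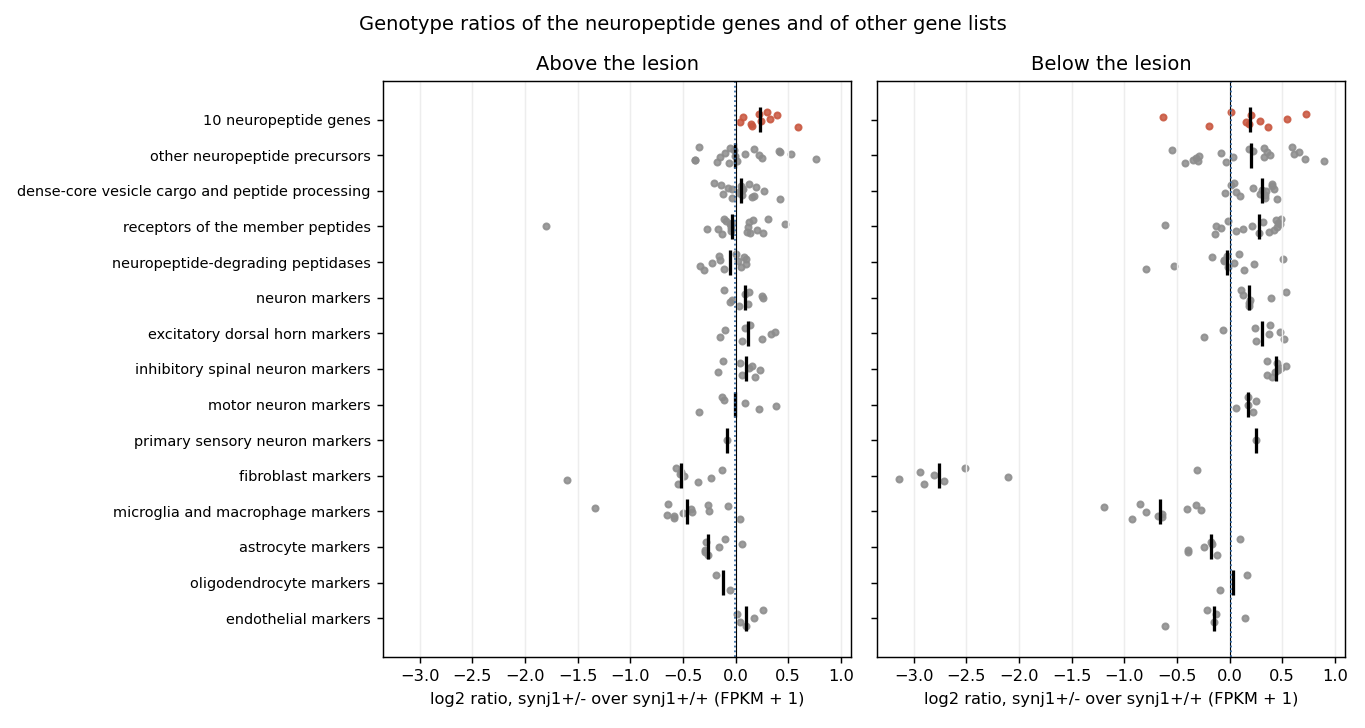
Log2 ratio of the synj1+/- labelled group over the synj1+/+ labelled group for each gene of the neuropeptide set and of the other lists drawn, above the lesion (left) and below it (right), with a point per gene, a black bar at the list's median and a dotted line at the median of all listed genes. The 10 neuropeptide genes have a median of 0.23 above the lesion, where neuron lists with more than 1 gene listed have medians from -0.01 to 0.12, and of 0.19 below, where inhibitory markers reach 0.44 and fibroblast markers -2.76.

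Because neuron markers were higher, the ratios were also read against them, a choice made after seeing the data. Above the lesion, taking off the median of the neuron markers left 8 of the 10 genes above 0, with CALCA at 0.50, CCK at 0.31 and SST at 0.24. Below the lesion it left 5 of 10 above 0, with GRP at 0.54, SST at 0.35 and CALCA at 0.18. Taking off instead the median of the excitatory and inhibitory markers together left 8 above 0 above the lesion, with CALCA at 0.48. Below the lesion only GRP, at 0.33, and SST, at 0.15, were above 0 by that measure, CALCA was at -0.03 and NPY was at -1.03.

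**Figure D4:**
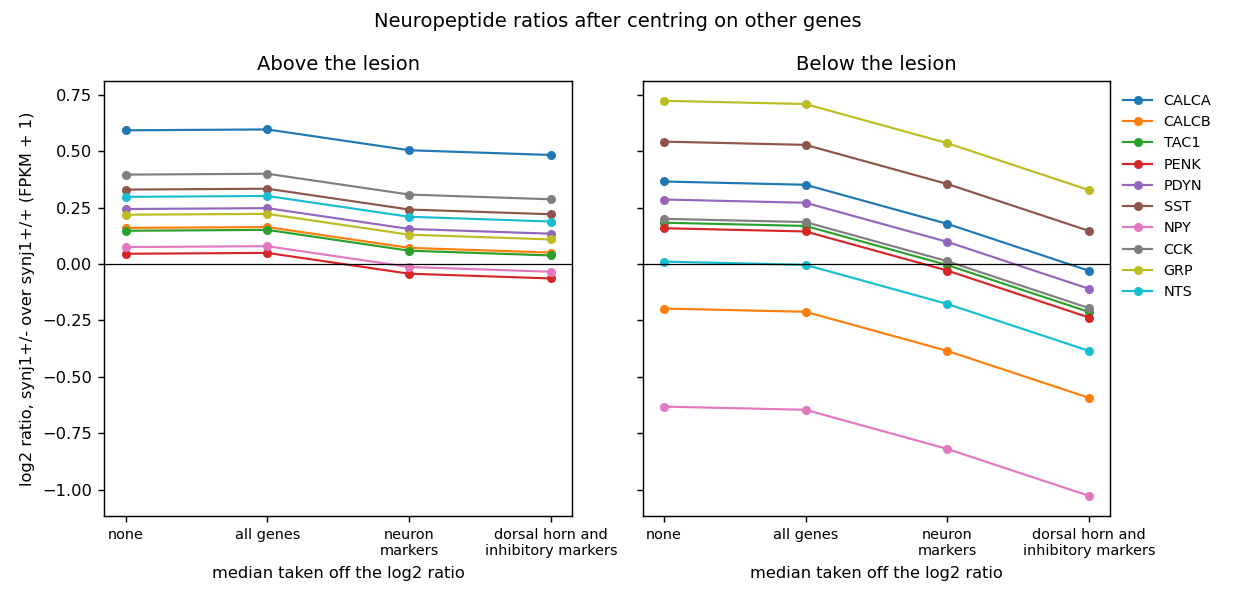
Log2 ratio of each neuropeptide gene, as reported (none) and after taking off the median of all listed genes, of the neuron markers, or of the excitatory dorsal horn and inhibitory markers, above the lesion (left) and below it (right); lines join the values of a gene. Above the lesion CALCA stays highest, from 0.59 to 0.48, while below it CALCA goes from 0.37 to -0.03 and GRP from 0.72 to 0.33.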

How the data were processed

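RNA was sequenced in 12 libraries of ApoE4 mouse spinal cord, 3 in each of 4 groups taken from the genotype and location given in the labels. According to the study's methods and the submitters' processing notes, reads of each site were removed at random to the smallest library, aligned with STAR 2.5.4b to GRCm38.p6, and summarized with upper quartile normalization (Cuffdiff 1.3.0). The authors' deposited table holds 25985 rows with FPKM values, 1 per gene and group pooled over 3 libraries, and 0 columns of single libraries. The lowest deposited value is exactly 1, so 1 was taken off to give FPKM. The table's fold change, p-value and q-value columns hold the study's own comparison and were not used, and neither was its shorter list.

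Ratios are log2 of FPKM plus 1, and a gene was singled out at 1.5-fold. Of 3 rows that repeat a symbol, the one with the higher sum was kept. The members and the 15 gene lists were chosen with earlier results of these data known. Genes named are the 10 members, SYNJ1, pathway-list genes past 1.5-fold with a mean of at least 1 FPKM, receptors of the members, markers, and the 5 genes nearest to CALCA. Other genes of the precursor, processing and peptidase lists (ADCYAP1, PCSK1, PCSK2, CHGA, CHGB, CPE, MME) were named after their values were seen. Sequences and positions came from GENCODE M21 and RefSeq, both on GRCm38. Alternatives were other pseudocounts, folds, centring and a filter on low values. Calculations were tested on simulated data and used Python 3.11.15, numpy 2.4.6, pandas 2.3.3, scipy 1.17.1 and matplotlib 3.10.9. The Schwann cell list as a whole is not reported here.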

Additional observations from a re-analysis of the deposited data

How the results depend on the processing

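The single-gene ratios kept their direction with no pseudocount, with a pseudocount of 0.1 or 5, with a filter at a mean of 1 FPKM and with rows of a symbol summed. Centring on the median of all genes turned 1 of 20, NTS below the lesion. With a pseudocount of 5, CALCA above the lesion and NPY below it fell short of 1.5-fold, which left 0 genes higher above and 0 lower below, and GRP below the lesion stayed past it. At that setting the median of the inhibitory markers below the lesion moved from 0.44 to 0.33. With the fold lowered to 25%, 3 genes were higher above and 3 below, and at 2-fold 0 genes passed in any direction at either site. Centring on the neuron markers, added after seeing the data, left 0 genes at least 1.5-fold higher at either site, 5 higher below the lesion and a median of 0.00 (0.0039) below. Centring on the excitatory and inhibitory markers, also added afterwards, left 0 genes at least 1.5-fold higher at either site and 2 at least 1.5-fold lower below, CALCB and NPY. It left 2 higher by any amount below, with medians of 0.12 above and -0.20 below. No paired analysis was possible because the table pools the libraries of a group, and for the same reason no replicate could be left out. With no spread between libraries, a value is called moved here beyond 0.1 on the log2 scale. Reads per gene are not given, so the precision of the genes under 31 FPKM, GRP and NPY among them, is unknown.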
